A study of Homo sapiens with 6 samples.

Results

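The 9 genes described here, UPF1, UPF2, UPF3A, UPF3B, SMG1, SMG5, SMG6, SMG8 and SMG9, encode the core factors of nonsense-mediated mRNA decay (NMD). They were chosen by a list of symbols from the 29476 genes of the deposited count table. The rule used no measured value, but the choice was made with earlier results of these data known. All 9 passed the filter on low counts that left 15615 genes for testing. The data are RNA-seq of polyadenylated RNA from A549, an established human lung adenocarcinoma cell line. Of the 6 libraries, 3 came from cultures transfected with a nontargeting siRNA (siCtrl) and 3 from cultures transfected with 1 siRNA against the RNA helicase DDX17 (siDDX17), which the methods call biological replicates. Both groups were transfected with a Lipofectamine reagent and grown in the same medium. The labels call the controls "control plasmid" although the methods describe siRNA only. A harvest at 48 h is given for RT-qPCR cultures, and a time for the RNA-seq cultures is not given in the sources used here. Because a single siRNA was used, effects of the loss of DDX17 and effects of the siRNA itself cannot be told apart.

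NMD removes mRNAs on which the ribosome stops too early, and it also sets the level of many normal transcripts. UPF1, an RNA helicase, gathers at the stalled ribosome with UPF2 and with UPF3A or UPF3B, which tie it to exon junction complexes left behind by splicing. The kinase SMG1, held in check by SMG8 and SMG9, then phosphorylates UPF1, and the phosphorylated protein recruits SMG5, which leads to deadenylation and decapping, and SMG6, which cuts the RNA. The mRNAs of several of these factors are themselves substrates of the pathway and are known to rise when it is blocked.

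The levels of these mRNAs did not move as a block after DDX17 knockdown. UPF2 rose by 39.8%, whereas SMG5, UPF1, SMG9 and SMG8 fell by 29.3%, 21.0%, 20.9% and 19.1%. UPF3A, UPF3B, SMG1 and SMG6 did not pass the test. Thus 5 of the 9 were called at an adjusted p under 0.05 (edgeR's quasi-likelihood test, Benjamini-Hochberg adjusted over all tested genes), 1 higher and 4 lower, against 48.8% of all tested genes called in either direction, 24.5% higher and 24.3% lower. The share of members called in either direction was therefore close to that of all genes. The split by direction was less close, moved with the scaling and was not tested. With libraries scaled by their size only, 2 were called higher and 2 lower, beside 33.5% and 15.97% of all tested genes. None of the 9 reached the limits stated in the methods (p under 0.01 and a fold change over 1.5 or under its inverse), which 11.0% of all tested genes met as higher and 8.03% as lower, nor a log2 fold change of 1 in either direction with an adjusted p under 0.05, met by 4.65% and 2.92%. The median log2 fold change of the members was -0.0004, beside 0.0051 over all tested genes.

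The libraries held between 30658136 and 39182371 counted reads, and each member had between 350 and 2666 reads in each library. Levels are given as CPM, counts scaled to the TMM-adjusted library size (between 28.6 and 38.5 reads in a library make 1 CPM). DDX17 was at 177, 184 and 206 CPM in siCtrl 1, 2 and 3 and at 32.1, 30.8 and 30.4 CPM in siDDX17 1, 2 and 3. Its log2 fold change was -2.60 (adjusted p = 5.89e-11, edgeR's quasi-likelihood test), so the groups were as labelled. The genes that mark A549 and epithelial cells were abundant, with 10 of 10 tested and a summed level, in CPM without TMM scaling, of 16300 to 17100 in siCtrl and 15100 to 15300 in siDDX17, although EPCAM was low (0.883 and 2.24 CPM on average). Of 5 haematopoietic markers, 3 were listed and only CD14 was tested (summed level 20.5 to 27.1 in siCtrl and 29.5 to 30.4 in siDDX17, with PTPRC at 2 reads or fewer in each library). The 3 endothelial markers summed to at most 0.407 CPM in any library, and the 4 fibroblast markers listed of 5 to between 2.91 and 3.73. The library siCtrl 1 stood apart from the other controls: the chi-square per gene between counts was 20.3 and 25.6 for its pairs with siCtrl 2 and 3, against 5.83 for siCtrl 2 and 3 and 3.62 to 5.49 for the pairs of siDDX17 libraries. Values without it are given for some genes below, and the calls of other genes changed as well. In bulk RNA a change in how many cells express a gene and a change in the RNA per cell cannot be told apart.

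**Figure D1:**
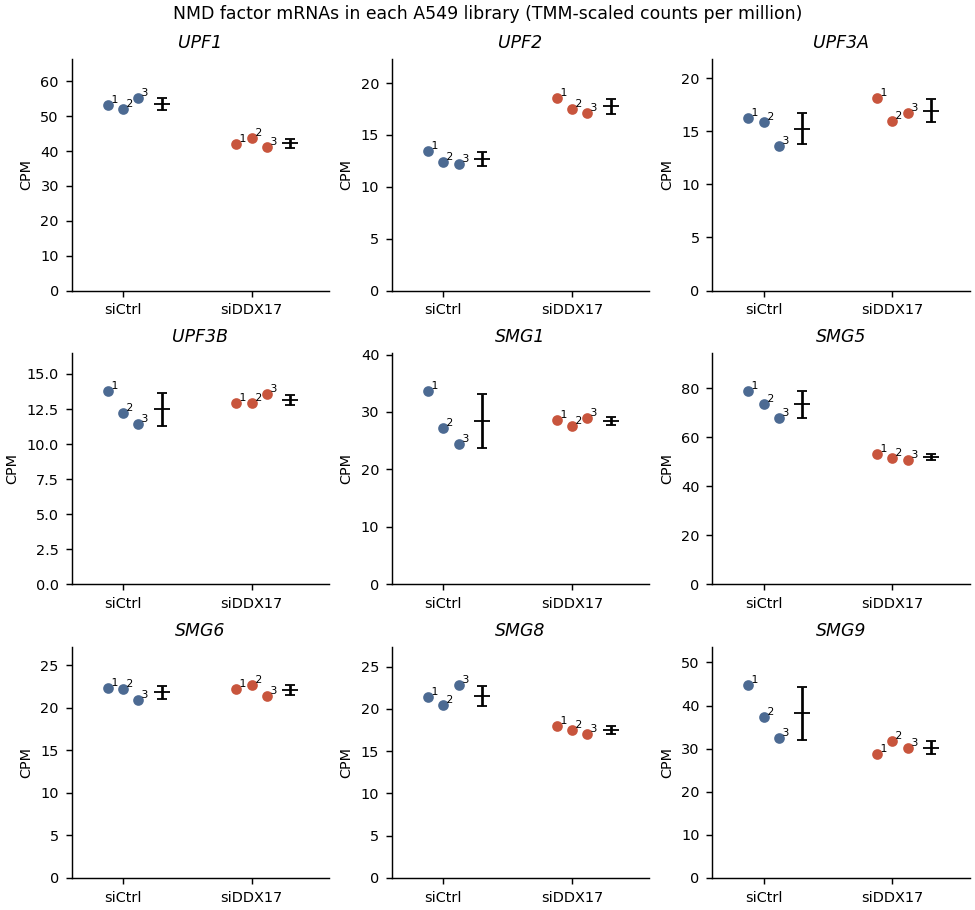
Level of each NMD factor mRNA in CPM (vertical axes, linear from 0, one scale per gene) in the 3 siCtrl and 3 siDDX17 libraries; points are libraries labelled by replicate number, and black marks give the mean with the SD (n = 3). The groups do not overlap for UPF1, UPF2, SMG5, SMG8 and SMG9 and overlap for the other 4 genes.

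The UPF proteins form the surveillance complex. UPF1 (ENSG00000005007.12), the helicase at the centre of the pathway, lies on the plus strand of chromosome 19 from 18831959 to 18868230 (GRCh38, GENCODE release 44, as for all positions here). In siCtrl 1, 2 and 3 it was at 53.4, 52.0 and 55.35 CPM, and in siDDX17 1, 2 and 3 at 42.2, 43.7 and 41.1 CPM. All 3 knockdown libraries were lower than any control, and both groups were tight. UPF1 thus had a log2 fold change of -0.34 (SE 0.0576, adjusted p = 0.000285, edgeR's quasi-likelihood test), with a range from -0.37 to -0.32 on leaving out 1 library at a time.

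UPF2 (ENSG00000151461.19, chromosome 10, minus strand, 11920022 to 12043170), the adaptor between UPF1 and the UPF3 proteins, went the other way. It was at 13.5, 12.4 and 12.2 CPM in siCtrl 1, 2 and 3 and at 18.6, 17.5 and 17.1 CPM in siDDX17 1, 2 and 3, so the groups did not overlap and all 3 knockdown libraries were higher. The log2 fold change of 0.48 (SE 0.0788, adjusted p = 0.000215, same test) lay between 0.45 and 0.52 without each library in turn. Within a library the log2 ratio of UPF2 to UPF1 reads, which does not depend on how libraries are scaled, was -1.99, -2.07 and -2.18 in siCtrl 1, 2 and 3 and -1.18, -1.32 and -1.26 in siDDX17 1, 2 and 3. The ratio was 1.77 times as high in the knockdown group. This pair was chosen after its values were seen, and the ratio was not tested.

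UPF3A and UPF3B are paralogs that occupy the same place in the complex, and UPF3B is the stronger activator of decay. UPF3A (ENSG00000169062.14, chromosome 13, plus strand, 114281601 to 114305817) was at 16.3, 15.9 and 13.6 CPM in siCtrl 1, 2 and 3 and at 18.2, 15.99 and 16.7 CPM in siDDX17 1, 2 and 3. In CPM the groups overlapped, with siDDX17 2 below siCtrl 1. For UPF3A the log2 fold change was 0.16 (95% interval -0.036 to 0.35, adjusted p = 0.166, edgeR's quasi-likelihood test). It passed the test under scaling by library size only (log2 fold change 0.28, adjusted p = 0.0290), a setting that moved the median of all genes up by 0.122 and called 33.5% of them higher and 15.97% lower, and by limma on log2(FPKM + 1) over the tested genes (0.24, adjusted p = 0.0337).

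UPF3B (ENSG00000125351.10, chromosome X, minus strand, 119834022 to 119852998) was at 13.8, 12.2 and 11.4 CPM in siCtrl 1, 2 and 3 and at 12.9, 12.95 and 13.6 CPM in siDDX17 1, 2 and 3. All knockdown values lay inside the range of the controls. Its log2 fold change of 0.08 had a 95% interval from -0.11 to 0.27 (adjusted p = 0.500, same test). Within a library, the log2 ratio of UPF3B to UPF3A reads was -0.29 ± 0.0733 in siCtrl and -0.37 ± 0.109 in siDDX17 (SD, n = 3). A difference as large in size as the -0.08 found was common over all ways to split the libraries (exact two-sided permutation test p = 0.5). The smallest p that 3 against 3 libraries allow is 0.1.

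The kinase complex consists of SMG1 and its partners. SMG1 (ENSG00000157106.16, chromosome 16, minus strand, 18804860 to 18926408), the kinase of UPF1, was at 33.6, 27.2 and 24.5 CPM in siCtrl 1, 2 and 3 and at 28.5, 27.6 and 29.0 CPM in siDDX17 1, 2 and 3. The controls enclosed the knockdown libraries, with siCtrl 1 the highest of all. The fitted log2 difference was -0.0004 (95% interval -0.21 to 0.21, adjusted p = 0.998, edgeR's quasi-likelihood test) and 0.13 without siCtrl 1 (adjusted p = 0.115).

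SMG8 (ENSG00000167447.12, chromosome 17, plus strand, 59209400 to 59215239) and SMG9 (ENSG00000105771.13, chromosome 19, minus strand, 43727983 to 43754962) bind SMG1 and restrain its activity. SMG8 was at 21.4, 20.4 and 22.8 CPM in siCtrl 1, 2 and 3 and at 17.9, 17.45 and 16.98 CPM in siDDX17 1, 2 and 3, without overlap. The log2 fold change of SMG8 was -0.305 (SE 0.0736, adjusted p = 0.00379, edgeR's quasi-likelihood test). SMG9 was at 44.7, 37.4 and 32.6 CPM in siCtrl 1, 2 and 3 and at 28.7, 31.8 and 30.2 CPM in siDDX17 1, 2 and 3. These groups did not overlap in CPM either, but the lowest control and the highest knockdown library were close. The log2 fold change of SMG9 was -0.34 (SE 0.0976, adjusted p = 0.0111, same test).

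The change of SMG9 varied in size when single libraries were left out, and its call was lost only without siDDX17 1. Without siCtrl 1 the log2 fold change of SMG9 was -0.22 and still called (adjusted p = 0.00690, edgeR's quasi-likelihood test). Without siDDX17 1 it was -0.30 and missed the threshold (adjusted p = 0.0527, same test). With libraries scaled by their size only, neither SMG8 (-0.18, adjusted p = 0.0694) nor SMG9 (-0.22, adjusted p = 0.113) was called. That scaling also moved the median of all genes up by 0.122, and which scaling is right was not tested.

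SMG5 and SMG6 act after UPF1 has been phosphorylated. SMG5 (ENSG00000198952.8, chromosome 1, minus strand, 156249224 to 156282825), which couples UPF1 to deadenylation and decapping, was the member that fell most. It was at 78.7, 73.7 and 67.8 CPM in siCtrl 1, 2 and 3 and at 53.2, 51.6 and 50.8 CPM in siDDX17 1, 2 and 3. The groups were far apart relative to the spread within them. On the log2 scale the change was -0.50 (SE 0.0638, adjusted p = 2.64e-05, edgeR's quasi-likelihood test), and it lay between -0.56 and -0.46 without each library in turn.

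SMG6 (ENSG00000070366.13, chromosome 17, minus strand, 2059839 to 2303785), the endonuclease of the pathway, was at 22.3, 22.2 and 21.0 CPM in siCtrl 1, 2 and 3 and at 22.2, 22.7 and 21.4 CPM in siDDX17 1, 2 and 3. The groups overlapped almost completely in CPM, but not in the deposited FPKM, where siDDX17 was higher. The log2 fold change of 0.02 had a 95% interval from -0.13 to 0.17 (adjusted p = 0.841, same test), so a change as large as that of SMG5 lay outside the interval for SMG6. The difference between the changes of both genes was not tested.

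**Figure D2:**
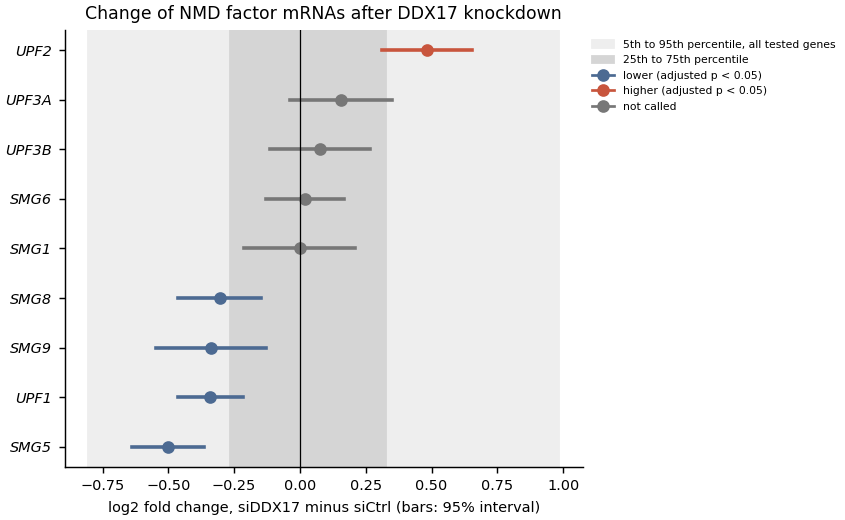
Log2 fold change of each NMD factor mRNA, siDDX17 minus siCtrl (horizontal axis), with its 95% interval from the edgeR fit; colours mark the calls at an adjusted p under 0.05 and grey bands the spread of the log2 fold changes of all 15615 tested genes. UPF2 at 0.48 is the only member called higher, and SMG5 at -0.50 is the lowest.

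Among all tested genes these changes were of ordinary size. The absolute log2 fold change of SMG5 exceeded that of 70.8% of tested genes and that of UPF2 exceeded 69.4%, while UPF1, SMG9 and SMG8 exceeded 55.6%, 55.3% and 51.4%. The 25th and 75th percentiles of the log2 fold changes of all tested genes were -0.265 and 0.328, and the 5th was -0.80. In CPM the groups did not overlap in 5 of the 9 members, 1 higher and 4 lower, as in 56.5% of all tested genes, 28.8% higher and 27.7% lower. This pattern depended on the unit. In the deposited FPKM, UPF3A (4.93 to 6.03 in siCtrl, 6.25 to 7.2 in siDDX17) was separate and higher. So was SMG6 (2.99 to 3.24 and 3.37 to 3.49), while SMG9 overlapped (4.9 to 6.87 and 4.71 to 5.16). The share of all genes without overlap in FPKM was not counted.

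Expression levels can be compared between genes only per transcript length, for which the deposited FPKM values were used. These values were not TMM-scaled here, so their differences between the groups can depart from those in CPM. In siCtrl the order of the mean levels was SMG5 (14.8 ± 1.29 FPKM), UPF1 (9.12 ± 0.420), SMG9 (5.75 ± 1.01), UPF3A (5.52 ± 0.555), SMG8 (5.26 ± 0.360), UPF3B (4.81 ± 0.541), SMG6 (3.11 ± 0.126), UPF2 (1.97 ± 0.139) and SMG1 (1.49 ± 0.270), each as the mean with the SD of 3 libraries. The libraries of neighbouring genes overlapped from SMG9 to UPF3B, so the order among these 4 genes was within their spread, whereas the other neighbours were separate in all 3 libraries. UPF1 was thus present at several times the level of UPF2 in control cells.

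In siDDX17 the same genes stood at both ends, with SMG5 at 11.4 ± 0.263 and UPF1 at 7.87 ± 0.151 FPKM above the rest and SMG6 (3.44 ± 0.0624), UPF2 (3.01 ± 0.127) and SMG1 (1.63 ± 0.0611) below. In the middle, UPF3A (6.72 ± 0.475) and UPF3B (5.53 ± 0.216) stood above SMG9 (4.96 ± 0.230) and SMG8 (4.66 ± 0.116, SD, n = 3). Only SMG9 and SMG8 overlapped as neighbours. The paralogs UPF3A and UPF3B, which did not pass the test themselves, thus ranked above SMG8 and SMG9 after knockdown, while these 4 genes could not be ordered in the control cells.

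**Figure D3:**
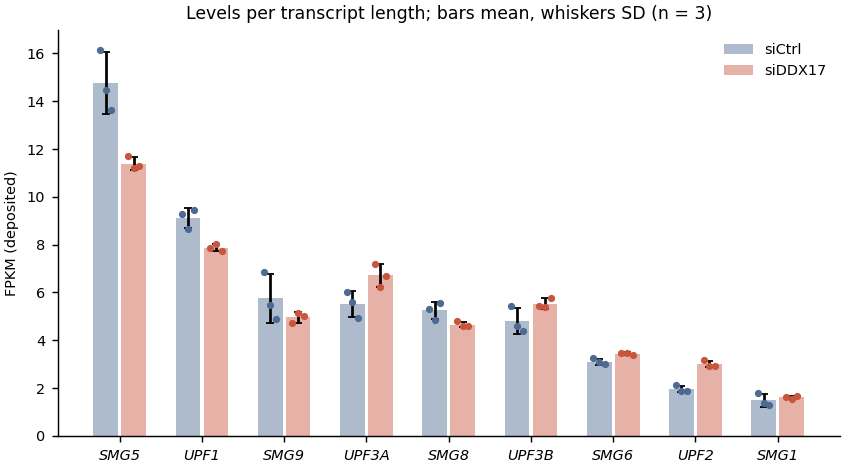
Deposited FPKM (vertical axis, from 0) of the NMD factors in siCtrl and siDDX17, ordered by their level in siCtrl; bars are means, whiskers the SD and points the 3 libraries. SMG5 and UPF1 lead in both groups and SMG1 is lowest, at 1.49 FPKM in siCtrl.

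Some of these genes share sequence with other loci, which limits what uniquely mapped reads can count. Of all 50-base stretches of the reference transcript of UPF3A, 42.4% also occur in annotated transcripts of the pseudogenes UPF3AP1, UPF3AP2 and UPF3AP3, and of SMG1 18.1% occur in transcripts of other genes, with SMG1P2, SMG1P5 and SMG1P1 sharing most. The methods give paired reads longer than 50 bases, so these shares do not measure how many reads were lost. The levels of UPF3A and SMG1 are uncertain by an amount not measured here, and the order of levels above holds for the counted reads only. The 7 SMG1 pseudogenes together held 28.7% to 36.6% as many reads as SMG1 in a library. Of these, SMG1P6 rose from 4.975 ± 0.0212 to 6.34 ± 0.300 CPM (SD, n = 3), a log2 fold change of 0.35 (adjusted p = 0.0145, edgeR's quasi-likelihood test) that missed the threshold without siDDX17 3 (adjusted p = 0.0695). The other 2 that were tested, SMG1P2 and SMG1P3, were not called, and 4 fell below the filter. The 3 UPF3A pseudogenes together held at most 4 reads in any library.

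Overlapping genes are a further source of uncertainty. The methods name a stranded library kit, but the use of strand in counting is not given in the sources used here. The exons of HIC1, on the opposite strand, cover 29.8% of the reference transcript of SMG6, but HIC1 had only 14 to 33 reads in a library, at most 3.99% of those of SMG6. Another annotated protein-coding gene, ENSG00000265303, overlaps 13.1% of the reference transcript of SMG8 on the same strand. Strand cannot separate this overlap, and the reads of that gene were not examined. For UPF1, UPF2, UPF3B and SMG5 no 50-base stretch occurred in a transcript of another gene and no exon overlapped one.

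The features by which transcripts are known to be exposed to NMD are a long 3' UTR, a start codon upstream of the reading frame, and a splice junction downstream of the stop codon. They were read from the reference transcript of each gene in GENCODE release 44, for 13103 tested genes with a coding reference transcript. The 3' UTR was 4709 bases long in SMG1 and 3613 in SMG9, longer than in 90.8% and 84.0% of these genes. It was 1713 bases in UPF1, 1649 in SMG6, 1363 in SMG5 and 1276 in UPF2, near the median of 1295 bases. In UPF3A (900 bases), UPF3B (856) and SMG8 (228) it was shorter. Of the 4 members that fell, SMG9 had the longest 3' UTR and SMG8 the shortest.

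An upstream ATG was present once each in the 5' UTRs of UPF2, SMG1, SMG5 and SMG9 and absent from the other 5 members, beside 40.4% of all these genes with at least 1. These 4 genes comprised 1 that rose, 1 that was not called and 2 that fell. In none of the 9 reference transcripts did a splice junction lie more than 50 bases past the stop codon, as in all but 1.18% of genes. Alternative transcripts annotated as NMD substrates were listed for UPF1 (2 of 17 transcripts), SMG1 (1 of 16), SMG8 (1 of 6) and SMG9 (1 of 13). A share of 47.1% of the genes had at least 1. The counts are summed over all transcripts of a gene, so such forms were not measured separately.

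The other parts of the pathway were read from lists of known components, whose counts stand beside the 24.5% of all tested genes called higher and 24.3% called lower. In the exon junction complex and its partners, 9 of the 10 listed genes were found by symbol and tested, of which 2 rose and 3 fell, with a median log2 fold change of -0.09. CASC3, which joins the core of the complex on spliced mRNA, rose from 66.7 ± 1.69 to 80.4 ± 2.24 CPM (log2 fold change 0.27), and RNPS1, a splicing activator bound to the complex, rose from 123 ± 4.92 to 142 ± 0.949 CPM (0.21). The core subunits MAGOHB, RBM8A and MAGOH fell by 0.29, 0.27 and 0.23 on the log2 scale, and the core helicase EIF4A3 was at 178.5 CPM on average in siCtrl and 167.5 CPM in siDDX17 and was not called. MAGOH overlapped between the groups and was not called without siCtrl 2, siDDX17 2 or siDDX17 3. Without siCtrl 1, EIF4A3 and ACIN1 were called lower as well, which made 5. That fit called 4312 of 15996 tested genes lower, beside 3798 of 15615 with all libraries.

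Of 11 other NMD cofactors, all tested, 2 rose and 3 fell (median log2 fold change -0.002). CTIF, which links the nuclear cap-binding complex to the ribosome for the early rounds of translation, had the largest increase of all genes in the lists. It was at 5.94, 7.87 and 6.165 CPM in siCtrl 1, 2 and 3 and at 17.7, 18.5 and 15.7 CPM in siDDX17 1, 2 and 3, with no overlap. Its log2 fold change was 1.39 (SE 0.112, adjusted p = 4.45e-07, edgeR's quasi-likelihood test). The subunits of the cap-binding complex itself, NCBP1 and NCBP2, fell by 0.22 and 0.19 on the log2 scale.

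RUVBL2, an ATPase that binds the SMG1 complex, rose by 0.19 on the log2 scale but was not called without siCtrl 1 or without any 1 of the siDDX17 libraries, which left CTIF as the 1 gene called higher. These fits called 3189 to 4220 of all tested genes higher. Without siDDX17 3 both cap-binding subunits missed the threshold, which left 1 gene called lower, beside 3101 of 15837 tested genes in that fit. NCBP2 was also not called without siDDX17 2.

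Termination of translation is the step at which NMD is triggered. Of 6 genes, 2 rose (median log2 fold change 0.11) and 0 fell by edgeR's quasi-likelihood test, also with 0 lower at an unadjusted p under 0.05; no other tool was run on these lists. ETF1, the release factor that reads stop codons, rose from 120 ± 3.92 to 148 ± 6.54 CPM (log2 fold change 0.31). PABPC4, a cytoplasmic poly(A)-binding protein, rose from 92.1 ± 4.16 to 156 ± 1.93 CPM, with a log2 change of 0.76 (adjusted p = 1.84e-07, edgeR's quasi-likelihood test). GSPT1, the partner of ETF1, was not called (0.06, adjusted p = 0.401). Without siCtrl 1, PABPC1 was called higher as well (0.19, adjusted p = 0.000421, same test), which made 3. In that fit 4220 of 15996 tested genes were called higher.

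The enzymes that destroy the RNA moved in both directions. Of 20 genes for decapping, deadenylation and exonucleases, 4 rose and 7 fell, with a median log2 fold change of 0.0036. CNOT8, a deadenylase subunit of the CCR4-NOT complex, had the largest decrease, from 37.4, 37.8 and 39.04 CPM in siCtrl 1, 2 and 3 to 13.5, 12.2 and 12.8 CPM in siDDX17 1, 2 and 3. Its log2 fold change was -1.57 (SE 0.0706, adjusted p = 2.91e-09, edgeR's quasi-likelihood test). The paralogous subunit CNOT7 was not called (-0.06, adjusted p = 0.375), whereas CNOT6, the other type of deadenylase in the complex, fell by 0.60 on the log2 scale.

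Among decapping factors, DCP2, the enzyme that removes the cap, rose from 9.81 ± 0.176 to 17.4 ± 0.517 CPM (SD, n = 3; log2 fold change 0.83, adjusted p = 1.62e-06, same test). Its cofactor EDC3 rose by 0.50, and LSM1 and PATL1, which bind the deadenylated end, rose by 0.24 and 0.25, LSM1 without a call when siDDX17 3 was left out. The scaffold EDC4 and the cofactor DCP1A fell by 0.59 and 0.44 on the log2 scale. XRN1, the exonuclease that degrades decapped RNA, was at 7.32, 5.28 and 4.40 CPM in siCtrl 1, 2 and 3 and at 6.36, 5.62 and 7.09 CPM in siDDX17 1, 2 and 3 and was not called (log2 fold change 0.17, adjusted p = 0.424). Without siCtrl 1 it was called higher (0.39, adjusted p = 0.0112).

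SMG1 belongs to the family of PIK-related kinases, which are folded with the help of the TTT complex (TELO2, TTI1 and TTI2). Of the other 5 kinases and the 3 TTT genes, 1 rose and 4 fell, with a median log2 fold change of -0.20. ATM rose from 6.53 ± 1.09 to 10.2 ± 1.13 CPM (SD, n = 3; log2 fold change 0.64). MTOR, TRRAP, TTI1 and TELO2 fell by 0.30, 0.25, 0.32 and 0.21 on the log2 scale. Of the fits that left out 1 library, only that without siCtrl 1 called TELO2 lower, and only that fit called PRKDC higher (0.19, adjusted p = 0.00166), which made 2 genes called higher. That fit called 4220 of 15996 tested genes higher, beside 3819 of 15615 with all libraries.

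**Figure D4:**
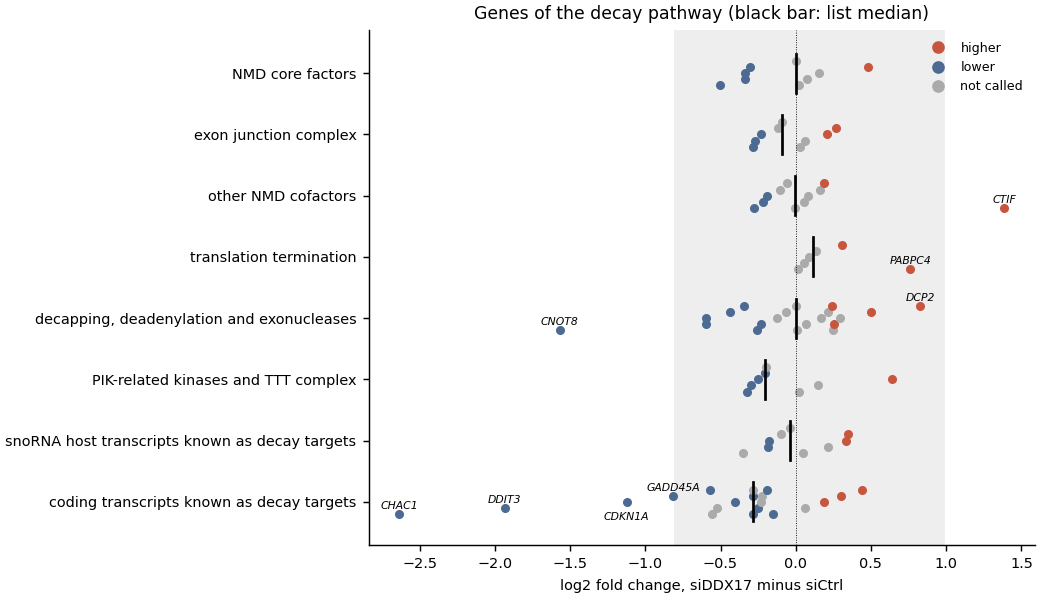
Log2 fold change, siDDX17 minus siCtrl (horizontal axis), of every tested gene in the lists named on the vertical axis; each point is a gene, coloured by its call at an adjusted p under 0.05, black bars are list medians and the grey band holds the 5th to 95th percentile of all tested genes. Each plotted list but translation termination holds genes called in both directions, and CTIF (1.39) and CNOT8 (-1.57) lie outside the band, as do CHAC1, DDIT3, CDKN1A and GADD45A.

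Transcripts known to be removed by NMD were examined as a further readout of the pathway. Of 9 noncoding host transcripts of small nucleolar RNAs and like genes, 2 rose and 2 fell (median log2 fold change -0.04). SNHG8 rose from 73.0 ± 8.53 to 92.2 ± 3.28 CPM (log2 fold change 0.34) and EPB41L4A-AS1 from 25.2 ± 2.72 to 32.1 ± 0.297 CPM (0.35). SNHG16 fell by 0.18 and was not called without siDDX17 3. SNHG15 fell by 0.18 too, and the loss of any 1 of the 6 libraries removed its call. GAS5, the host transcript often used to follow the pathway, was at 241, 220 and 225.5 CPM in siCtrl 1, 2 and 3 and at 235, 237 and 239 CPM in siDDX17 1, 2 and 3. It was not called, with a log2 fold change of 0.05 (adjusted p = 0.495, edgeR's quasi-likelihood test). ZFAS1 was not called either (-0.04, adjusted p = 0.592).

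Of 20 genes with coding transcripts known as decay substrates, 3 rose and 11 fell, beside 24.5% and 24.3% of all tested genes, with a median log2 fold change of -0.28. In several of them, such as SRSF2, SRSF3, SRSF7, HNRNPDL and RPL3, only certain splice forms are substrates, which gene counts do not separate. HNRNPDL, RPL3 and BAG1 rose by 0.44, 0.30 and 0.19 on the log2 scale, BAG1 without a call when siDDX17 1 or 3 was left out. CDKN1A, also a target of p53, fell from 475 ± 24.6 to 218 ± 8.90 CPM (SD, n = 3; log2 fold change -1.12, adjusted p = 1.26e-08, edgeR's quasi-likelihood test) and by 1.17 without siCtrl 1. TBL2, a substrate through its long 3' UTR, was at 53.4, 47.2 and 52.2 CPM in siCtrl 1, 2 and 3 and at 52.9, 53.9 and 52.6 CPM in siDDX17 1, 2 and 3 and was not called (0.06, adjusted p = 0.444).

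ARFRP1, a small GTPase of the Golgi, was at 23.8, 17.2 and 16.2 CPM in siCtrl 1, 2 and 3 and at 13.2, 12.5 and 12.85 CPM in siDDX17 1, 2 and 3, without overlap. It fell by 0.57 on the log2 scale (adjusted p = 0.00175, same test) and by 0.39 without siCtrl 1. SRSF2, a splicing factor, fell by 0.29 and, without siCtrl 1, by 0.35. Neither lost its call when any 1 library was left out.

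Other genes of this list include members of the integrated stress response, ATF4 and its targets, and several of them varied widely among the control libraries. DDIT3 was at 123.5, 44.7 and 6.70 CPM in siCtrl 1, 2 and 3 and at 16.6, 15.6 and 13.5 CPM in siDDX17 1, 2 and 3. The knockdown libraries lay within the range of the controls and above siCtrl 3. CHAC1 showed the same spread, with 71.9, 29.3 and 3.52 CPM in siCtrl 1, 2 and 3 and with 5.45, 6.06 and 5.32 CPM in siDDX17 1, 2 and 3. Its groups overlapped too. CHAC1, DDIT3, GADD45A, ATF4 and GADD45B had log2 fold changes of -2.63, -1.93, -0.81, -0.40 and -0.28 with all libraries. Without siCtrl 1 they were -1.50, -0.72, -0.47, -0.23 and -0.18. GADD45B is not taken here as a target of ATF4, and it varied less, with 38.8, 34.3 and 28.3 CPM in siCtrl 1, 2 and 3. DDIT3 and GADD45B missed the threshold without any 1 of the siDDX17 libraries, GADD45B also without siCtrl 2, and ATF4 without siDDX17 2 or 3.

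Other stress genes also turned with the choice of controls. ATF3, not called with all libraries (-0.23), was called higher without siCtrl 1 (0.41, adjusted p = 0.0367), and TRIB3, PPP1R15A and IFRD1 were called lower without siCtrl 3 but in no other fit that left out 1 library. The number of these 20 genes called lower was 5 without siDDX17 2, 6 without siDDX17 3 and 7 without siDDX17 1. In these fits 3280 of 15931, 3101 of 15837 and 3235 of 15879 tested genes were lower, beside 3798 of 15615 with all libraries. The part of the stress response in the levels of the NMD factors was not tested. SMG1, SMG5, SMG9 and UPF3B were also at their highest in siCtrl 1 among all 6 libraries, while UPF1 and SMG8 were at theirs in siCtrl 3.

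**Figure D5:**
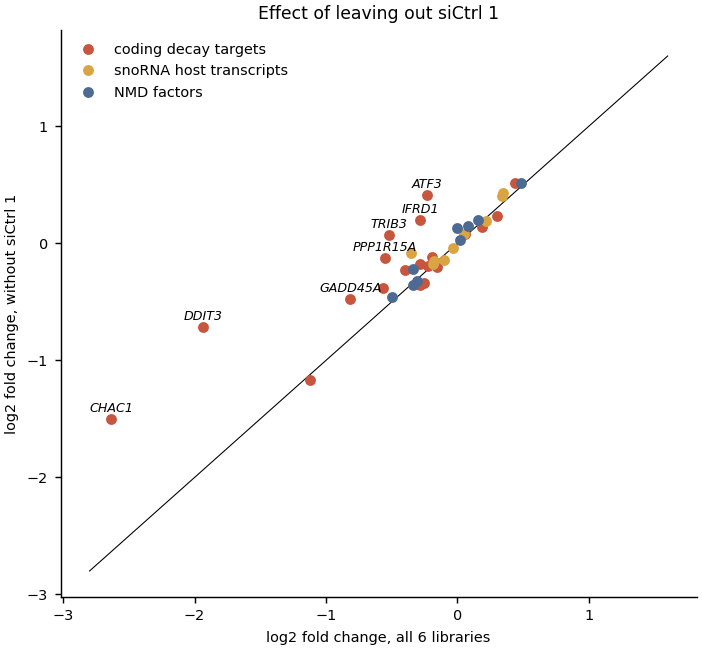
Log2 fold change (siDDX17 minus siCtrl) from all 6 libraries (horizontal axis) against that without siCtrl 1 (vertical axis) for the NMD factors and known decay substrates; each point is a gene and the line marks equal values. The NMD factors lie close to the line, while CHAC1 (-2.63 against -1.50) and DDIT3 (-1.93 against -0.72) lie far from it.

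For each member, the gene with the most similar profile was sought among 8966 other tested genes whose mean log2 CPM was 3 or more, by the root mean square difference of log2 CPM, centred over the 6 libraries. The nearest genes were ALKBH5 for UPF1 (0.0188), PDCD7 for UPF2 (0.0268), SUGP2 for UPF3A (0.0252), DCUN1D3 for UPF3B (0.0163), PRKAA1 for SMG1 (0.0377), ACP2 for SMG5 (0.0152), BRE for SMG6 (0.0130), GALNT10 for SMG8 (0.0158) and CYP4F3 for SMG9 (0.0421). None of the 9 was a gene of the lists above, and no 2 members had the same neighbour. The likeness is a description over 6 libraries in 2 groups and was not tested.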

How the data were processed

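For 6 libraries the authors deposited raw counts per gene of uniquely mapped reads, after quality trimming and alignment by TopHat2 against GRCh38, without pooling. They also deposited FPKM values, scaled for transcript length and library size and rounded to hundredths. The submitters' processing notes also name bcl2fastq and edgeR. The methods name a stranded library kit. The counting program, annotation release and use of strand in counting are not given in the sources used here.

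Counts of 29476 genes were analysed with edgeR 4.0.16 in R 4.3.3: the default expression filter (15615 genes kept), TMM scaling, glmQLFit and glmQLFTest, siDDX17 against siCtrl, with Benjamini-Hochberg adjustment over all tested genes. The direction of a small change can depend on scaling and its adjusted p on the filter. The call threshold was an adjusted p of 0.05. Standard errors and 95% intervals came from the same fit. In counts simulated with 100 genes changed 1.4-fold and 100 changed 2-fold, the test recovered 57 and 88 and called 10 unchanged genes. Far fewer genes were changed there than were called in the data, so these rates may not hold for the data. Each member had at least 350 reads in each library. The errors given are between libraries and include counting error, which was not separated.

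Alternatives were scaling by RLE, by the upper quartile or by library size only, DESeq2 1.42.0, the exact test of edgeR, no filter, at least 10 counts in every library, robust estimation, limma 3.58.1 for log2(FPKM + 1) and log2(FPKM + 0.1), a block for the replicate number, other call limits, and each library left out in turn. Transcript features were read with Python 3.11.15 from GENCODE release 44 (GRCh38), in which 98.9% of the tested gene identifiers were found. The members and lists were chosen with earlier results of these data known. Named genes are the members, DDX17, genes of the lists (at most 4 called in each direction with the largest changes, plus uncalled genes of interest) and the nearest gene of each member. Beyond this rule, ATF4, GADD45B, ARFRP1 and SRSF2 were named after their values were seen. Lists were described by counts and medians only. PYM1 and CARS1 were not found by these symbols, and CARS1 was read under its older symbol CARS. The values of 1 gene of the other NMD cofactors, which is included in the counts of its list, are not reported here.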

Additional observations from a re-analysis of the deposited data

How the results depend on the processing

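UPF1, UPF2 and SMG5 kept their direction and call under all 18 alternatives fitted for each, with log2 fold changes from -0.37 to -0.19, from 0.43 to 0.60 and from -0.56 to -0.34, and DDX17 likewise (-2.66 to -2.30). SMG8 and SMG9 stayed lower throughout (-0.35 to -0.14 and -0.45 to -0.17) but were not called with library size only or in the 3 fits to FPKM, and SMG9 was also not called without siDDX17 1. UPF3B, SMG1 and SMG6 were called in no setting, and UPF3A was called in 3. With library size only, as with limma on log2(FPKM + 1) and on log2(FPKM + 0.1), 2 members were called higher and 2 lower, beside 33.5%, 33.3% and 33.4% of all genes higher and 15.97%, 15.2% and 15.2% lower in these 3 fits. Without a filter on FPKM 1 was higher and 2 lower, beside 14.9% and 6.56% of all genes. At the limits of the methods and at a log2 fold change of 1, 0 were higher and 0 lower, while 5 had an unadjusted p under 0.05. Leaving out each library in turn gave 1 higher and 3 to 4 lower. Over all tested genes, the fewest were called without siDDX17 3 (3189 higher and 3101 lower of 15837). The most were called without siCtrl 1 (4220 higher and 4312 lower of 15996).

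The lists were refitted with library size only, which moved the median of all genes up by 0.122. It gave 1 exon junction complex gene lower, 5 other cofactors higher and 1 lower, 4 termination genes higher, 8 decapping, deadenylation and exonuclease genes higher, 2 kinase and TTT genes higher and 1 lower, 4 snoRNA host transcripts higher and 0 lower, and 6 coding substrates lower. The replicate numbers did not pair the libraries (correlations of deviations from the group means 0.00698, 0.0407 and -0.0564). With the replicate block 1 member was higher and 4 lower, as without it, 2 kinase and TTT genes were higher and 1 snoRNA host transcript lower. Leaving out each library gave 2 to 5 exon junction complex genes lower, 1 to 3 other cofactors higher and 1 to 4 lower, 1 to 2 kinase and TTT genes higher, 0 to 2 snoRNA host transcripts lower, 5 to 12 coding substrates lower, and among SMG1 pseudogenes 0 to 1 higher and 0 to 1 lower. Over the same fits, 3189 to 4220 of all tested genes were called higher and 3101 to 4312 lower. The causes of these differences were not tested. The ratio of UPF3B to UPF3A differed between the groups by -0.12 to -0.01 on the log2 scale over its alternatives.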
